A study of Mus musculus with 5 samples.

Results

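The unplaced random contigs of the mouse assembly mm9 are stretches that were sequenced but could not be put in order on a chromosome. Those assigned to a chromosome carry its name (chr1_random), and those assigned to none are joined, with gaps, into chrUn_random. The members are all 1 kb bins with at least 1 read in any of the 5 libraries on a name ending in _random, with chrX_random and chrY_random left out. They came to 2862 bins of 2454241 bins with a read in the whole series. The bins lay on 9 contigs: 1316 on chrUn_random, 663 on chr1_random, 370 on chr9_random, 338 on chr8_random, 102 on chr4_random, 60 on chr13_random, 5 on chr7_random, and 4 each on chr5_random and chr17_random. The bins on the 8 contigs assigned to a chromosome, 1546 in all, are called the other contigs below.

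The series mapped modified cytosines in mouse embryonic stem cells by enriching sonicated DNA and sequencing it, with 1 library for each method. The hMeDIP library was enriched for 5-hydroxymethylcytosine (5hmC) and the MeDIP library for 5-methylcytosine (5mC), each with 2 µg of the matching antibody. The MethylCap libraries were bound to a methyl-CpG-binding domain fused to GST and eluted at 800 mM or 600 mM NaCl. These 4 libraries came from E14 gene-trap clones grown without feeder cells in serum and LIF. The input library, DNA with no enrichment, came from TNG-A cells, an E14 derivative with EGFP at the Nanog locus. All enriched libraries and their input therefore differ in cell line as well as in enrichment, and a difference in the copy number of a contig cannot be told apart from enrichment in any ratio to input. Ratios between the enriched libraries do not use the input.

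5mC is the main DNA modification of mammals and sits mostly on CpG sites, where it is associated with silencing of genes and of repeats. TET enzymes oxidise 5mC to 5hmC, and embryonic stem cells have abundant TET activity. An antibody pull-down reads the density of the modified base in a fragment, while a methyl-CpG-binding domain holds double-stranded fragments more tightly the more methylated CpG sites they carry, so that higher salt releases the more densely methylated ones. Contigs often stay unplaced because they are rich in repeats, and reads from many copies in the cell can then align to the few copies in an assembly.

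Each group is 1 library, so no difference below has a replicate check and no p-value is given. Values are reads scaled to 1000000 reads on chr1-19 (RPM), and a fold is the ratio of 2 such values. Intervals are exact 95% intervals for counting error only, and reads that share a fragment source are not independent molecules. The libraries held 18154810 (hMeDIP), 10260899 (MeDIP), 7416361 (800 mM), 10333875 (600 mM) and 17840298 (input) reads on chr1-19. The contigs took 0.114%, 0.302%, 0.272%, 0.238% and 0.135% of all reads in the same order. At most 1 read per position and strand was present in the hMeDIP, MeDIP and input libraries, and at most 2 in the MethylCap libraries. No RefSeq annotation of mm9 was used, and no gene, repeat or sequence is named for these contigs.

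Reads covered the contigs unevenly. Of the bins on chrUn_random up to its last read at about 5901 kb, 22.3% held a read in any library, against 82.2% on chr9_random, 63.4% on chr4_random, 58.0% on chr1_random, 39.9% on chr8_random and 15.0% on chr13_random. Only 1.91% of chr5_random, 1.43% of chr7_random and 0.808% of chr17_random bins did. These last 3 contigs held between 0 and 7 reads in each library, too few for a fold. On chr17_random, 4 hMeDIP, 7 MeDIP, 1 800 mM, 2 600 mM and 1 input reads were counted. Of the 2862 member bins, 2177 held an hMeDIP read, 1963 a MeDIP read, 1526 an 800 mM read, 1718 a 600 mM read and 2488 an input read.

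ChrUn_random held more MeDIP reads for its input than any of the other contigs with at least 100 input reads. It had 13459 hMeDIP, 25979 MeDIP, 15761 800 mM, 16876 600 mM and 16219 input reads. In RPM these were 741.3, 2532, 2125, 1633 and 909.1. The fold over input was 2.79 for MeDIP (95% interval 2.73 to 2.84), 2.34 for the 800 mM eluate (2.29 to 2.39) and 1.80 for the 600 mM eluate (1.76 to 1.84). For hMeDIP it was 0.815 (0.797 to 0.834), the lowest of the 4, and it became 1.23 when reads with 1 in column 4 of the files, described below, were left out. Raw folds of typical chromosomal bins lie below 1: the median over 1752246 bins of chr1-19 with at least 5 input reads was 0.562 for hMeDIP, 0.522 for MeDIP, 0.301 for 800 mM and 0.345 for 600 mM. With those medians set to 1, the folds of chrUn_random were 1.45, 5.34, 7.77 and 5.20, so that hMeDIP too then lay above 1. The pooled reads of chr1-19, whose raw fold is 1 by the scaling, also lie above 1 under this setting. A fold above 1 is then above the median bin and need not be above chr1-19 as a whole.

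Chr1_random was high in all 4 enriched libraries. It held 3537 hMeDIP, 2884 MeDIP, 2934 800 mM, 4512 600 mM and 2889 input reads, for folds of 1.20, 1.74, 2.44 and 2.70. The placed chromosome 1 had folds of 0.884, 0.877, 0.811 and 0.820. Chr1_random therefore stood 1.36 times as high as chromosome 1 in hMeDIP, 1.98 times in MeDIP, 3.01 times at 800 mM and 3.29 times at 600 mM.

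Chr4_random had its highest fold in the 600 mM eluate and its lowest in hMeDIP. It held 603 hMeDIP, 767 MeDIP, 748 800 mM, 1724 600 mM and 1121 input reads, and its folds were 0.529, 1.19, 1.61 and 2.66. Relative to the placed chromosome 4 these were 0.492, 1.14, 1.48 and 2.47. Its hMeDIP fold was the lowest among the contigs with at least 100 input reads, but with the chr1-19 medians set to 1 it was 0.941, with an interval of 0.851 to 1.04 that included 1. Without reads with 1 in column 4, its fold was 1.80 at 600 mM and 1.08 at 800 mM, the last with an interval of 0.960 to 1.22. The MeDIP fold was 1.08 (0.980 to 1.20) without the 10 densest bins of the other contigs.

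The remaining contigs were at or below their input in all 4 libraries, except with chr1-19 medians set to 1. Chr9_random held 2110 hMeDIP, 1161 MeDIP, 538 800 mM, 1104 600 mM and 3362 input reads, and its folds were 0.617, 0.600, 0.385 and 0.567. Against the placed chromosome 9 they were 0.584, 0.557, 0.353 and 0.520, the lowest contig-to-chromosome ratios in MeDIP and both eluates. Chr8_random, with 1114 hMeDIP, 686 MeDIP, 393 800 mM, 556 600 mM and 1224 input reads, had folds of 0.894, 0.974, 0.772 and 0.784. Chr13_random, with 265 hMeDIP, 209 MeDIP, 124 800 mM, 182 600 mM and 370 input reads, had folds of 0.704, 0.982, 0.806 and 0.849. The MeDIP intervals of both included 1. With the chr1-19 medians set to 1, the hMeDIP folds of chr8_random, chr9_random and chr13_random became 1.59, 1.10 and 1.25. There, 1 stands for the median bin of chr1-19 and not for its pooled reads.

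**Figure D1:**
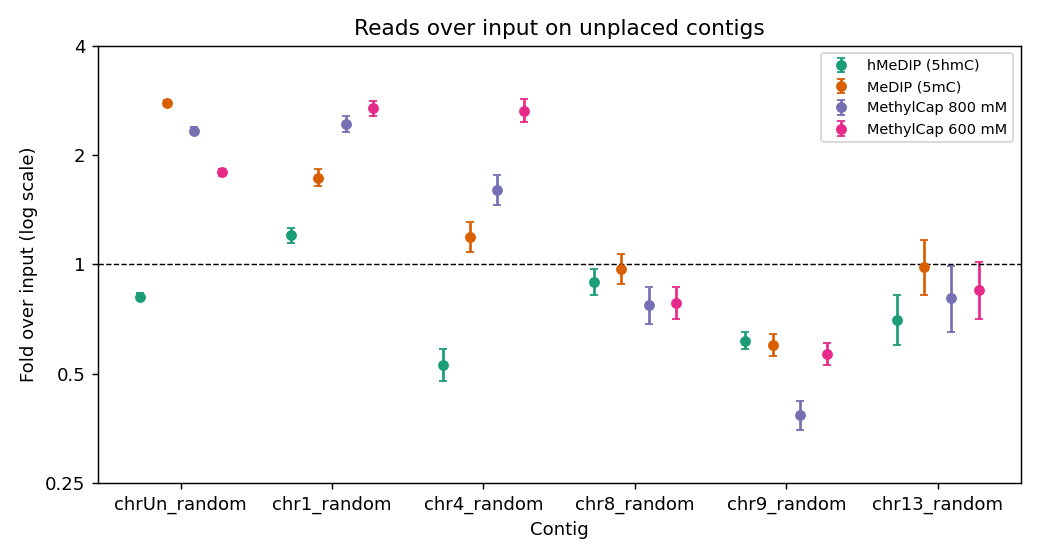
Fold over input (log scale; RPM) of the 6 contigs with at least 100 input reads, 1 point per library with its exact 95% counting interval. ChrUn_random has its highest fold in MeDIP (2.79) and its lowest in hMeDIP (0.815, or 1.23 without reads with 1 in column 4), while chr1_random and chr4_random have theirs in the 600 mM eluate (2.70 and 2.66); with the chr1-19 medians set to 1, the hMeDIP fold of chrUn_random is 1.45.

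Pooled, the other contigs held 7634 hMeDIP, 5717 MeDIP, 4738 800 mM, 8080 600 mM and 8975 input reads. Their folds were 0.836, 1.11, 1.27 and 1.55. The fold of chrUn_random over that of the other contigs was 2.51 in MeDIP (2.42 to 2.61), 1.84 at 800 mM (1.77 to 1.92) and 1.16 at 600 mM (1.11 to 1.20). In hMeDIP this ratio was 0.976, and its interval of 0.939 to 1.01 included 1. The hMeDIP ratio was 1.42 (1.36 to 1.48) without reads with 1 in column 4 and 1.10 (1.05 to 1.15) in bins with at least 5 input reads. The 600 mM ratio was 1.02 (0.985 to 1.06) with at most 1 read per position. Copy number differences between the cell lines could enter these ratios wherever they affect chrUn_random and the other contigs unequally.

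Bin by bin, a minority of chrUn_random bins was called. A bin was called when its RPM plus 0.5 was at least 3 times the input RPM plus 0.5. In MeDIP, 215 of 1316 chrUn_random bins (16.3%) were called, against 42 of 1546 bins of the other contigs (2.72%) and 2.65% of all 2300314 bins tested on chr1-19 and the contigs. At 800 mM, 121 chrUn_random bins (9.19%) and 65 bins of the other contigs (4.20%) were called, beside 4.43% of all bins. The 800 mM count on chrUn_random was 65 with at most 1 read per position and 70 without reads that have 1 in column 4, while that of the other contigs was 65 under both. The share of all bins was not computed under these settings. At 600 mM the counts were 88 (6.69%) and 52 (3.36%), beside 3.42% of all bins. In hMeDIP, 5 chrUn_random bins (0.380%) and 20 bins of the other contigs (1.29%) were called, both below the 2.04% of all bins. The other contigs as a pool were thus close to the background in MeDIP and both eluates, but single contigs were not. Of the 42 MeDIP calls of the pool, 30 lay on chr1_random and 5 on chr4_random. Chr8_random and chr9_random held 3 each and chr13_random 1. In MeDIP, 800 mM and 600 mM order, chr1_random had 4.52%, 7.24% and 5.43% of its bins called. Chr4_random, with 102 bins, had 4.902%, 7.84% and 7.84%. Both lay above the background in all 3 libraries. On chr4_random these were only 5, 8 and 8 bins, and 6 of those at 800 mM formed 1 run at 124001–130000. Below it were chr8_random (0.888%, 1.18% and 0.888%), chr9_random (0.811%, 0.811% and 1.35%) and chr13_random (1.67%, 3.33% and 0%). The median bin ratio on chrUn_random was 0.899 in hMeDIP, 0.976 in MeDIP and 1 in both eluates. On chr1-19 it was 0.869, 0.883, 0.748 and 0.817. The median count per chrUn_random bin was 2 MeDIP and 6 input reads, and the added 0.5 RPM draws ratios of such counts towards 1. The median therefore cannot show whether the typical bin shared the MeDIP fold of the whole contig.

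The antibody libraries were also compared directly, without the input. ChrUn_random had 741.3 RPM in hMeDIP and 2532 RPM in MeDIP, an hMeDIP-to-MeDIP ratio of 0.293 (0.287 to 0.299). The other contigs had a ratio of 0.755 (0.729 to 0.781), so chrUn_random stood at 0.388 of them (0.373 to 0.404). Single contigs ranged from 0.444 on chr4_random and 0.693 on chr1_random, through 0.717 on chr13_random and 0.918 on chr8_random, to 1.03 on chr9_random. In 229 chrUn_random bins (17.4%) the MeDIP value was at least 3 times the hMeDIP value, against 13 bins of the other contigs (0.841%) and 0.455% of all bins. The reverse, hMeDIP at least 3 times MeDIP, was met by 1 bin of chrUn_random and 3 of the other contigs, beside 0.529% of all bins.

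**Figure D2:**
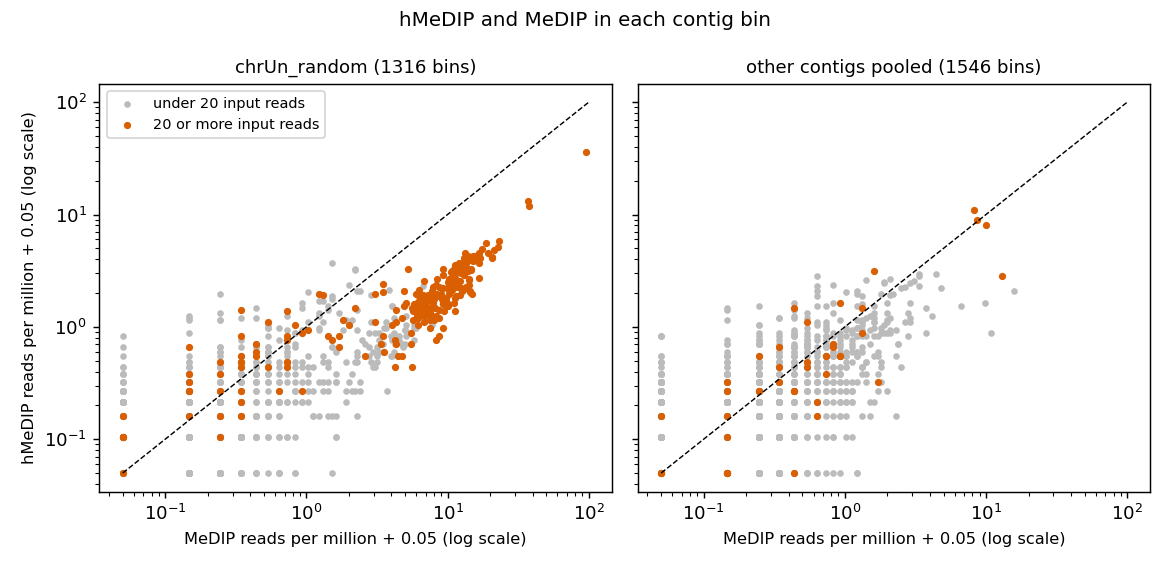
hMeDIP against MeDIP RPM (plus 0.05, log scales) in each bin of chrUn_random (left) and of the other contigs pooled (right). Coloured points have 20 or more input reads and the dashed line marks equal values. On chrUn_random, MeDIP exceeded hMeDIP in 211 of the 241 coloured bins, which form a band below the line.

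The bins that carried the chrUn_random signal were those with many input reads. Classes of input reads per bin were chosen after the values were seen, and choosing bins by their input draws any ratio to input down as the class rises, so the same classes on chr1-19 are given beside them. Chr1-19 is not a matched control. Bins with 20 to 39 input reads made up 11.6% of chrUn_random and 1.44% of chr1-19, and those with 40 or more 6.69% and 0.0109%. The draw can therefore differ in size between chrUn_random and chr1-19, and its part in the contrasts was not tested. On chrUn_random the MeDIP fold was 1.81 in the 409 bins with 1 to 4 input reads, 1.14 in the 301 with 5 to 9, 1.66 in the 224 with 10 to 19, 3.36 in the 153 with 20 to 39 and 3.56 in the 88 with 40 or more. On chr1-19 the MeDIP folds of the same classes were 2.68, 1.21, 0.575, 0.256 and, in the 250 bins of 40 or more, 1.01. ChrUn_random thus lay below chr1-19 in the class of 1 to 4 input reads, and above it from 10 on. With 5 to 9 input reads its interval of 1.06 to 1.22 included the chr1-19 fold. The other contigs had 0.370 with 20 to 39 and 1.19 in the 6 bins with 40 or more. The 800 mM eluate followed the MeDIP order on chrUn_random from 10 input reads on, at 1.11, 2.13 and 3.42, beside 0.591, 0.293 and 1.51 on chr1-19. The 600 mM eluate was highest in the bins with 1 to 4 input reads, at 3.96, and stood at 1.35 and 2.17 in the top classes. On chr1-19 these values were 2.70, 0.262 and 1.42. The hMeDIP folds of chrUn_random stayed between 0.639 and 0.933 over all 5 classes. On chr1-19 they were 2.37, 1.16, 0.666, 0.414 and 0.675. In hMeDIP, chrUn_random thus lay below chr1-19 in bins of 1 to 9 input reads and above it from 20 on. With 10 to 19 its interval of 0.603 to 0.677 included the chr1-19 fold.

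**Figure D3:**
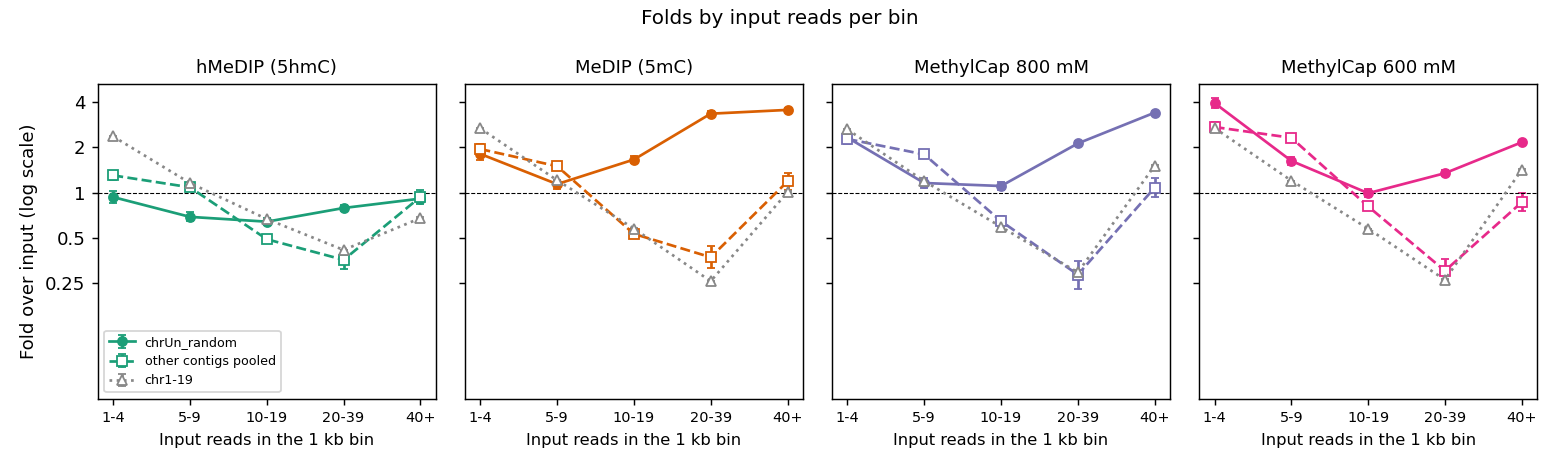
Fold over input (log scale) against the number of input reads in the bin, for chrUn_random, the other contigs pooled and chr1-19, 1 panel per enriched library, with exact 95% counting intervals. From 20 input reads on, chrUn_random lies at 3.36 and 3.56 in MeDIP while chr1-19 lies at 0.256 and 1.01. In hMeDIP with all reads, chrUn_random lies at 0.789 and 0.911 and chr1-19 at 0.414 and 0.675. Without reads with 1 in column 4, the hMeDIP fold of chrUn_random over both classes is 1.62.

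Taking both upper classes together, 241 chrUn_random bins (18.3% of its bins) had at least 20 input reads and are called dense. They held 67.1% of the contig's hMeDIP reads, 79.5% of its MeDIP reads, 78.5% of its 800 mM reads, 64.7% of its 600 mM reads and 63.6% of its input reads. Their folds were 0.861 in hMeDIP (0.837 to 0.885), 3.48 in MeDIP (3.40 to 3.57), 2.88 at 800 mM (2.81 to 2.96) and 1.83 at 600 mM (1.78 to 1.88). Without reads with 1 in column 4 they were 1.62, 6.55, 2.31 and 1.48, and with the chr1-19 medians set to 1 they were 1.53, 6.68, 9.59 and 5.30. The median dense bin held 30 hMeDIP, 79 MeDIP, 37 800 mM, 31 600 mM and 34 input reads. Elsewhere on the contigs, 41 bins were this dense, and their median was 7 hMeDIP, 5 MeDIP, 1 800 mM, 1 600 mM and 22 input reads. Of those 41, 17 lay on chr4_random, 17 on chr9_random, 5 on chr1_random and 2 on chr8_random. Their pooled folds were 0.610, 0.728, 0.631 and 0.546, and without the 10 bins of the other contigs with the most input reads they were 0.370, 0.411, 0.274 and 0.286. The 33351 dense bins of chr1-19 had pooled folds of 0.424, 0.284, 0.339 and 0.306.

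In MeDIP and in both eluates, each counted separately, most dense chrUn_random bins lay above input. Their bin ratios ranged from 0.228 to 6.53 in MeDIP and from 0.116 to 4.73 at 800 mM. MeDIP exceeded input in 194 of the 241 bins, the 800 mM eluate in 186, the 600 mM eluate in 165 and hMeDIP in 80. At the 3-fold rule, 144 were called in MeDIP, 76 at 800 mM, 2 at 600 mM and 0 in hMeDIP. Of the dense bins of chr1-19, 0.156% were called in MeDIP, 0.600% at 800 mM, 0.189% at 600 mM and 0.141% in hMeDIP. The dense chrUn_random bins had a median hMeDIP-to-MeDIP ratio of 0.286, with a range of 0.14 to 2.37. MeDIP was at least 3 times hMeDIP in 170 of them (70.5%), against 0.120% of the dense bins of chr1-19. The dense bins of the other contigs had a median ratio of 0.929, and those of chr1-19 one of 1.18. The pooled ratio of chr1-19 was 1.62 in bins with 20 to 39 input reads but 0.671 (0.658 to 0.685) in its 250 bins with 40 or more. MeDIP thus exceeded hMeDIP in the densest class of chr1-19 too. On chrUn_random the pooled ratios of these classes were 0.234 and 0.256. In the remaining chrUn_random bins, 5 were called in hMeDIP, 71 in MeDIP, 45 at 800 mM and 86 at 600 mM, so 86 of the 88 calls at 600 mM lay outside the dense bins. As shares of those 1075 bins these were 0.465%, 6.60%, 4.19% and 8%, beside 2.07%, 2.68%, 4.49% and 3.47% of the chr1-19 bins with under 20 input reads. The 800 mM share there was thus at the background.

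Of the 241 dense bins, 200 had a dense bin next to them, and 222 lay from 3.4 Mb on. How often other bins with a read adjoin each other was not computed, so the 200 have no background beside them. From the first to the last Mb, 6, 0, 6, 68, 59 and 102 bins were dense. They were among 104, 95, 130, 330, 350 and 307 bins with a read. By the Mb, the MeDIP fold of chrUn_random was 1.34 in the first, 1.20 in the second, 0.597 in the third, 2.35 in the fourth, 3.08 in the fifth and 3.32 in the last. The hMeDIP folds of the same stretches were 0.956, 1.03, 0.623, 0.833, 0.773 and 0.844. In 18 stretches of 200 kb with at least 100 input reads, the MeDIP fold ranged from 0.430 to 4.44 with a median of 2.84, and the hMeDIP fold from 0.344 to 1.09 with a median of 0.748. In 10 of the 18 the MeDIP fold was at least 2, and these held 91.8% of the contig's MeDIP reads. The stretch 4800001–5000000, between stretches at 4.17 and 3.09, had a MeDIP fold of 0.430, so the signal was interrupted within the contig.

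The bin with the most input reads on any contig was chrUn_random at 5496001–5497000. It held 654 hMeDIP, 981 MeDIP, 1349 800 mM, 1219 600 mM and 687 input reads, for raw folds of 0.935, 2.48, 4.72 and 3.06. The hMeDIP interval, 0.839 to 1.04, included 1, and the other 3 lay above it. A bin offers 2000 read positions over both strands. The reads occupied 32.7% of them in hMeDIP, 49.05% in MeDIP, 42.35% at 800 mM, 38.6% at 600 mM and 34.35% in the input, so the limit of 1 or 2 reads per position bears on the counts there. The bin at 5249001–5250000 had the same order, with 215 hMeDIP, 385 MeDIP, 480 800 mM, 427 600 mM and 260 input reads. On the other contigs, the bin with the most input reads was chr1_random at 272001–273000, with 200 hMeDIP, 84 MeDIP, 183 800 mM, 210 600 mM and 309 input reads. There hMeDIP exceeded MeDIP 1.35 times (1.04 to 1.76), opposite to the pair on chrUn_random.

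**Figure D4:**
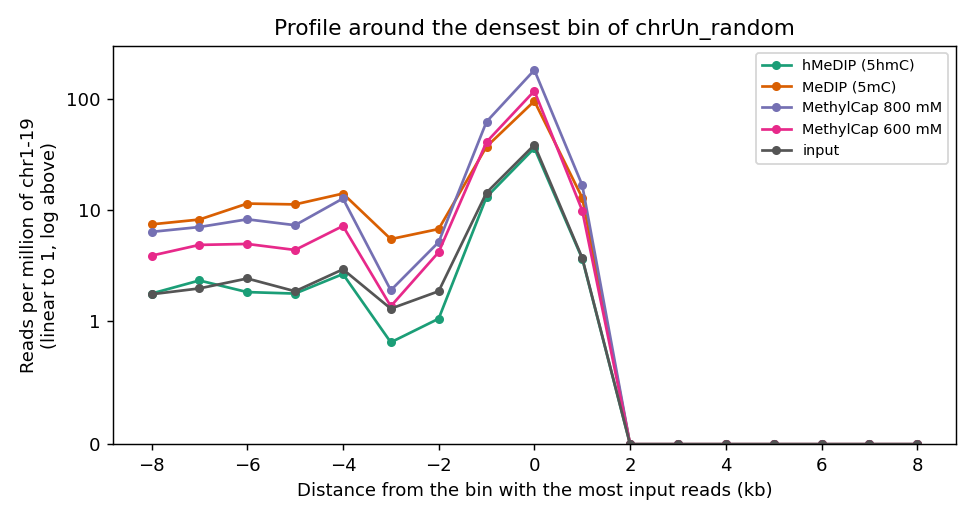
RPM (linear up to 1, log above) in the 1 kb bins around the chrUn_random bin with the most input reads, against distance from it, 1 line per library. hMeDIP and input run close together, MeDIP and the eluates lie above them at the centre, and no library has a read from 2 kb on.

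The longest runs of called bins lay in different places for each library. In MeDIP it was 10 bins at 4524001–4534000 of chrUn_random, with 547 hMeDIP, 1362 MeDIP, 647 800 mM, 573 600 mM and 511 input reads and folds of 1.05, 4.63, 3.05 and 1.94. At 600 mM it was 15 bins at 5558001–5573000 of the same contig, with 38 hMeDIP, 28 MeDIP, 156 800 mM, 494 600 mM and 66 input reads. The folds over that run were 0.566, 0.738, 5.69 and 12.9, so that the eluates were high where both antibodies had few reads. At 800 mM it was 6 bins at 124001–130000 of chr4_random. In hMeDIP no run was longer than 2 bins.

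The eluates differed between chrUn_random and the other contigs. ChrUn_random had 2125 RPM at 800 mM and 1633 RPM at 600 mM, a ratio of 1.30 (1.27 to 1.33), while the other contigs had a ratio of 0.817 (0.788 to 0.847). The quotient of these was 1.59 (1.53 to 1.66). The 800 mM value exceeded the 600 mM value in 209 of the 241 dense chrUn_random bins, whose pooled ratio was 1.58. It did so in 13 of the 41 dense bins of the other contigs and in 35.9% of those of chr1-19. Single other contigs ranged from 0.605 on chr4_random and 0.679 on chr9_random to 0.985 on chr8_random. At 3-fold, 1 chrUn_random bin and 2 bins of the other contigs favoured 800 mM, beside 0.226% of all bins. The reverse held for 8 chrUn_random bins and 2 bins of the other contigs, beside 0.117% of all bins. The bin that favoured 800 mM most was chr1_random at 300001–301000, with 50 reads at 800 mM and 8 at 600 mM. The one that favoured 600 mM most was chrUn_random at 5748001–5749000, with 2 reads at 800 mM and 30 at 600 mM.

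On the other contigs, a few bins held much of the 600 mM signal. The 10 bins with the most reads held 36.8% of their 600 mM reads, against 17.6% on chrUn_random. At 800 mM these shares were 21.5% and 20.4%. In chr4_random at 128001–129000, 37 hMeDIP, 161 MeDIP, 175 800 mM, 725 600 mM and 6 input reads were counted, and the bin ratios were 3.03, 19.4, 28.8 and 84.5. This bin had the highest ratio of any contig bin in MeDIP and both eluates. The 6 bins at 124001–130000 around it held 134 hMeDIP, 289 MeDIP, 424 800 mM, 1310 600 mM and 40 input reads, so most of the 1724 600 mM reads of chr4_random came from them. Of the reads in the top bin, 85 at 800 mM, 381 at 600 mM and 3 in the input had 1 in column 4. In chr1_random at 49001–50000, 29 hMeDIP, 100 MeDIP, 104 800 mM, 457 600 mM and 8 input reads were counted, with ratios of 2.21, 10.8, 15.3 and 47.2. The next bin, 50001–51000, had 27 hMeDIP, 68 MeDIP, 102 800 mM, 365 600 mM and 10 input reads. The bin after it, 51001–52000, had 15 hMeDIP, 111 MeDIP, 89 800 mM, 274 600 mM and 4 input reads, and with 0.117 the lowest hMeDIP-to-MeDIP value of any contig bin. These 3 adjacent bins and the chr4_random bin shared 1 order, with 600 mM highest and hMeDIP lowest of the enriched libraries.

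Bins with a high hMeDIP ratio were few. Among those with at least 5 input reads, the highest were chr1_random at 364001–365000 (53 hMeDIP and 5 input reads; ratio 4.38), chrUn_random at 3482001–3483000 (66 and 8; 4.36) and chr1_random at 411001–412000 (51 and 5; 4.24). The chr1_random bins were also called in MeDIP, with 45 and 34 MeDIP reads. The chrUn_random bin was not, with 15 MeDIP, 1 800 mM and 2 600 mM reads, so its 5hmC signal came without signal in the eluates. In chr8_random at 811001–812000, 45 hMeDIP and 19 MeDIP reads stood beside 0 at 800 mM, 6 at 600 mM and 5 in the input. This bin was called in MeDIP, at 3.01, and in neither eluate. With 0.5 RPM added to each value, the bin in which hMeDIP stood furthest above MeDIP was chrUn_random at 4164001–4165000, with 35 hMeDIP and 2 MeDIP reads. Next came chr13_random at 367001–368000, with 26 and 1, and chr9_random at 422001–423000, with 25 and 1. Their ratios were 3.49, 3.23 and 3.14, and the raw ratios 9.89, 14.7 and 14.1, so the order depends on the added value.

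**Figure D5:**
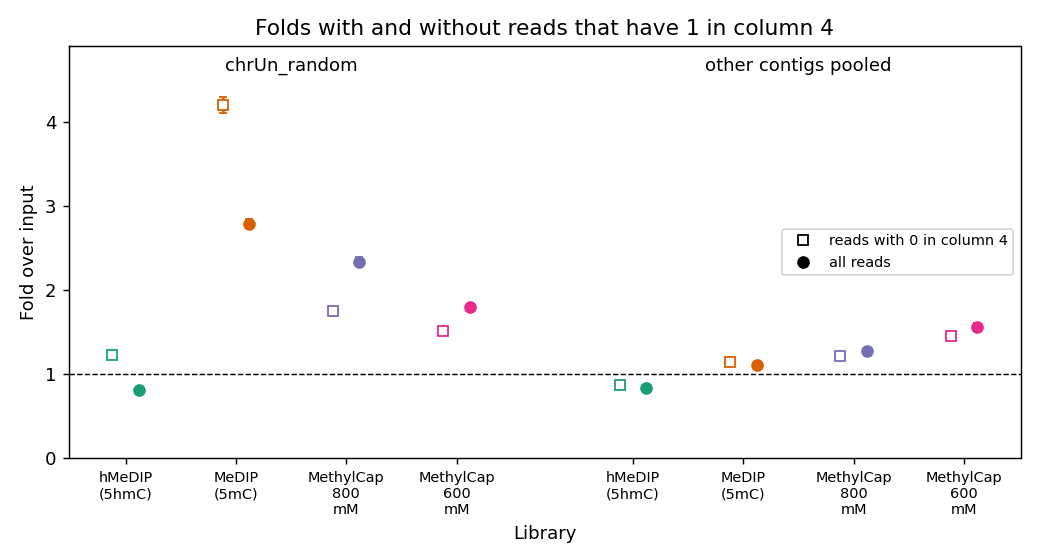
Fold over input without (squares) and with (circles) the reads that have 1 in column 4, for chrUn_random and for the other contigs pooled, with exact 95% counting intervals. On chrUn_random the hMeDIP fold is 1.23 without and 0.815 with them and the MeDIP fold 4.20 without and 2.79 with them, while the other contigs move little.

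Column 4 of the deposited files holds 0 or 1 for each read, with no stated meaning, and was 0 for every read of the hMeDIP and MeDIP libraries. Reads with 1 made up 54.5% of chrUn_random reads at 800 mM, 48.4% at 600 mM and 39.3% in the input, against 8.14%, 7.85% and 8.45% on chr1-19. Over the other contigs pooled they made up 14.9%, 16.7% and 11.6%, with chr4_random at 45.6%, 45.0% and 19.5%. In the input, their share on chrUn_random was 11.0% in bins with 1 to 4 input reads, 15.1%, 22.5% and 43.5% in the next classes, and 56.9% in bins with 40 or more. High shares were not particular to chrUn_random. Chr1-19 bins with 40 or more input reads had 42.9% at 800 mM, 39.1% at 600 mM and 33.4% in the input, although those with 20 to 39 had 7.90% in the input. The 10 stretches of 200 kb with MeDIP folds of at least 2 had input shares of 35.3% to 58.3%, and the other 8 had 9.51% to 29.3%. These shares thus moved with read density and with the MeDIP fold, and their part in the result was not tested.

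Leaving out the reads that have 1 removes none from hMeDIP or MeDIP, so for those libraries only the input count changes, on chrUn_random to 9847 reads from the 16219 above, and both folds move by the same factor. Without those reads, chrUn_random had folds of 1.23 in hMeDIP, 4.20 in MeDIP, 1.75 at 800 mM and 1.52 at 600 mM, and the other contigs had 0.865, 1.15, 1.22 and 1.45. ChrUn_random over the other contigs then stood at 1.42 in hMeDIP, 3.66 in MeDIP and 1.44 at 800 mM. At 600 mM it stood at 1.04, no longer clear of 1. The hMeDIP-to-MeDIP ratios do not use these reads. The antibody libraries did hold reads where the input had a 1. Of the chrUn_random input positions with 1 in column 4, 25.4% were also read in hMeDIP and 43.7% in MeDIP, against 11.8% and 17.0% of the input positions with 0. The share of input reads with 1 rose with the input reads of the bin, as given above. The 2 kinds of position were not matched for read density, so this contrast cannot be assigned to column 4.

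Libraries shared read positions on chrUn_random far more often than elsewhere. Of the positions and strands read there, 20.7% in hMeDIP, 17.1% in MeDIP, 33.2% at 800 mM and 27.9% at 600 mM were also read in the input. On the other contigs the shares were 2.95%, 2.59%, 3.21% and 2.14%, and on chr1-19 they were 0.475%, 0.462%, 0.493% and 0.466%. A shared position is more likely where the input has read more of the positions. Bins with at least 20 input reads held 63.6% of the input reads of chrUn_random, 15.8% of those of the other contigs and 4.32% of those on chr1-19. Shares at equal read density were not computed. All 2736 contig positions with 2 reads at 800 mM, and all 2548 at 600 mM, held 1 read with 0 and 1 with 1 in column 4. With at most 1 read per position, the chrUn_random fold was 1.97 at 800 mM and 1.56 at 600 mM, while those of hMeDIP and MeDIP were as before.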

How the data were processed

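One library each of hMeDIP, MeDIP, MethylCap eluted at 800 mM, MethylCap eluted at 600 mM and input was analysed. The submitters' processing notes name BWA 0.5.8 and mm9. Every line of the deposited files is a single 35 bp alignment, so the counts are whole reads; the last column, a count deposited by the authors, was always 1. Column 4, which the authors deposited as 0 or 1 per read, has no stated meaning and was used only to leave reads out as an alternative. How duplicates were handled is not given.

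Each read was placed by its midpoint in 1 kb bins and counts were scaled to 1000000 reads on chr1-19 (RPM). Folds carry exact 95% Clopper-Pearson intervals of the conditional binomial, and ratios of folds carry exact conditional odds-ratio intervals; both cover counting error only. A bin was called at 3-fold or more after adding 0.5 RPM to each value. With 1 library per group, no test was run. The interval and call code was tested on simulated data. Tools were Python 3.11.15, numpy 2.4.6, pandas 2.3.3, scipy 1.17.1 and matplotlib 3.10.9.

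Bins were named by rule: per library the 3 highest ratios on chrUn_random and on the other contigs, with at least 5 input and 20 library reads; the 3 extremes of each direct ratio; the 3 bins with most input reads; and the longest run of called bins. Bins outside this rule are given only in groups. The contigs, the bins and the tests were chosen with earlier results of these data known, and the classes by input reads after the values were seen. ChrX_random and chrY_random were left out of all pooled values. Alternatives changed the reads, the total, the bins, the bin size, the pseudocount and the threshold.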

Additional observations from a re-analysis of the deposited data

Results flagged for a closer look

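Reads on chrY_random, which no comparison above uses, stood far above the input in all 4 enriched libraries. The contig held 9727 hMeDIP, 6879 MeDIP, 3413 800 mM, 4891 600 mM and 66 input reads. The folds over input were 145 in hMeDIP, 181 in MeDIP, 124 at 800 mM and 128 at 600 mM. Without reads with 1 in column 4 they were 190.2, 238, 170.9 and 175.3. The enriched libraries and the input came from different cell lines, so the number of copies of the contig and its enrichment cannot be told apart.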

How the results depend on the processing

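No paired analysis was possible because each group has 1 library. Values keep the library order hMeDIP, MeDIP, 800 mM, 600 mM; the cause of a change was not tested, and all alternatives chosen at the start were run. For the fold of chrUn_random over input (0.815, 2.79, 2.34 and 1.80), leaving out reads with 1 in column 4 gave 1.23, 4.20, 1.75 and 1.52, so hMeDIP changed sides of 1; in hMeDIP and MeDIP this removes input reads only. Setting the median of chr1-19 bins to 1 gave 1.45, 5.34, 7.77 and 5.20, again with hMeDIP above 1. That setting also puts the pooled chr1-19 reads above 1. All reads of the file as the total gave 0.837, 2.86, 2.41 and 1.86. At most 1 read per position gave 1.97 at 800 mM and 1.56 at 600 mM. Without the 10 bins with the most input reads these were 2.15 and 1.71. Bins with at least 5 input reads gave 0.795 in hMeDIP and 1.64 at 600 mM.

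For chrUn_random over the other contigs (0.976, 2.51, 1.84 and 1.16), leaving out reads with 1 in column 4 gave 1.42, 3.66, 1.44 and 1.04, and bins with at least 5 input reads gave 1.10, 3.09, 2.19 and 1.26. At 800 mM and 600 mM, 1 read per position gave 1.56 and 1.02, and leaving out the 10 densest bins gave 1.66 and 1.05. The hMeDIP-to-MeDIP ratio was 0.272 on chrUn_random and 0.701 on the other contigs with the median set to 1, and 0.282 and 0.792 in bins with at least 5 input reads. The 800 mM to 600 mM ratio on chrUn_random was 1.15 without reads with 1 in column 4, 1.26 with 1 read per position, 1.49 with the median set to 1, 1.26 without the 10 densest bins and 1.41 in bins with at least 5 input reads. On the other contigs it was 0.938 with the median set to 1.

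Called contig bins (25, 257, 186 and 140) were 82, 436, 685 and 619 with the median set to 1, 110, 436, 427 and 339 with 0.1 RPM added, 2, 152, 94 and 70 with 1 RPM added, 8, 97, 79 and 57 in 5 kb bins, and 0, 40, 30 and 49 at 5-fold. With at least 5 input reads, 14 were called in hMeDIP and 68 at 600 mM. Under the main rule the counts were 0.874%, 8.98%, 6.50% and 4.89% of the contig bins, beside 2.04%, 2.65%, 4.43% and 3.42% of all bins. With the median set to 1 they were 2.87%, 15.2%, 23.9% and 21.6% of the contig bins. The share of all bins was computed for the main rule only, so the counts under the alternatives have no background beside them.

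With the median set to 1, these folds also crossed 1: hMeDIP of the other contigs pooled at 1.49; chr8_random at 1.59 in hMeDIP, 2.57 at 800 mM and 2.27 at 600 mM; chr9_random at 1.10, 1.15, 1.28 and 1.64; chr13_random at 1.25 in hMeDIP and 2.68 at 800 mM; dense bins of chrUn_random at 1.53 in hMeDIP; and dense bins of the other contigs at 1.09, 1.39, 2.10 and 1.58. The hMeDIP fold of the dense chrUn_random bins was 1.62 without reads with 1 in column 4, and the MeDIP fold of the other contigs was 0.913 in bins with at least 5 input reads. The MeDIP folds of chr8_random and chr13_random and the 600 mM fold of chr13_random, whose intervals included 1, became 1.87, 1.88 and 2.46 with the median set to 1. Intervals of chr4_random came to include 1 at 800 mM without reads with 1 in column 4 (1.08), in hMeDIP with the median set to 1 (0.941), and in MeDIP without the 10 densest bins (1.08) and in bins with at least 5 input reads (1.10). That of chr13_random at 800 mM did so with 1 read per position (0.817) and with all reads of the file as the total (0.832). Depth limits single bins, and the limit of 1 or 2 reads per position limits the densest ones.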
